A study of Caenorhabditis elegans with 4 samples.

Results

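Argonaute proteins hold small RNAs and use them to find matching transcripts. In Caenorhabditis elegans the family is large and its classes carry different small RNAs. The microRNA Argonautes act throughout the body, PRG-1 carries piRNAs in the germline, and the WAGO proteins and CSR-1 carry 22G RNAs made by RNA-dependent RNA polymerases. The 26G class is divided by germ cell type: ALG-3 and ALG-4 serve developing sperm, and ERGO-1 serves oocytes and embryos. Described here are 10 Argonaute genes, chosen by name from 20179 genes in the count table: csr-1, hrde-1, wago-1 and wago-4 of the 22G class, prg-1 of the piRNA class, alg-3 and alg-4 of the spermatogenic 26G class, ergo-1 of the oocyte and embryo 26G class, and alg-1 and alg-2 of the microRNA class. All 10 were present and passed the filter on low counts.

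Ribosome footprints, the stretches of message that ribosomes shield from nuclease, were sequenced from whole young adult worms. The 2 mutant libraries came from a double mutant with the alleles cey-1(rrr12) and cey-4(ok858), and the other 2 from N2, the wild-type strain. The cey genes encode Y-box proteins, cold-shock domain proteins that coat messenger RNA, and the comparison addresses which messages gain or lose footprints in their absence. Levels are CPM, gene counts scaled by the library total, log2 fold changes are mutant over N2, and "rose" and "fell" mark an edgeR quasi-likelihood test with a Benjamini-Hochberg adjusted p under 0.05 over all 13086 genes tested.

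Library totals were 27180732 and 22303560 counts in the mutant and 32913332 and 27867396 counts in N2. Footprints on the mutated genes were nearly lost, with cey-4 at 1.88 and 1.52 CPM in the mutant against 263 and 266 CPM in N2, and cey-1 at 3.86 and 4.13 CPM in the mutant against 69.9 and 73.5 CPM in N2. Markers of germline, oocyte, sperm, muscle, intestine, neurons and hypodermis were detected. These markers, like the members and the pathway lists, were chosen with earlier results of these data known. Across all genes 34.0% passed the test, 17.4% higher and 16.6% lower, with a median log2 fold change of 0.012. Footprints count both how much of a message is present and how many ribosomes sit on it, and in whole worms fewer cells of a type and less RNA per cell cannot be told apart. The labels do not say whether the 2 libraries of a genotype came from separate cultures, so the p-values measure only the spread between these libraries, which may be technical.

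The genes chosen for the Argonaute classes moved in different directions. Other Argonautes were not assigned to these classes, so no direction is given for a whole class. The pair of spermatogenic genes, alg-3 and alg-4, rose by about 1.7-fold. The 4 genes chosen from the 22G class, the piRNA Argonaute prg-1 and the oocyte and embryo Argonaute ergo-1 fell. Among 9 other Argonautes tested, described below, sago-2 and wago-10 rose, ppw-2 fell and 6 did not pass. Of the microRNA pair, alg-1 rose and alg-2 did not pass the test. In all, 3 of 10 members rose and 6 fell, against 17.4% and 16.6% of all genes tested, and the members' median log2 fold change was -0.21. The groups did not overlap for any of the 10 members, with the mutant above N2 for 3 and below N2 for 7; the same held for 64.9% of all genes tested, 33.8% above and 31.1% below.

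**Figure D1:**
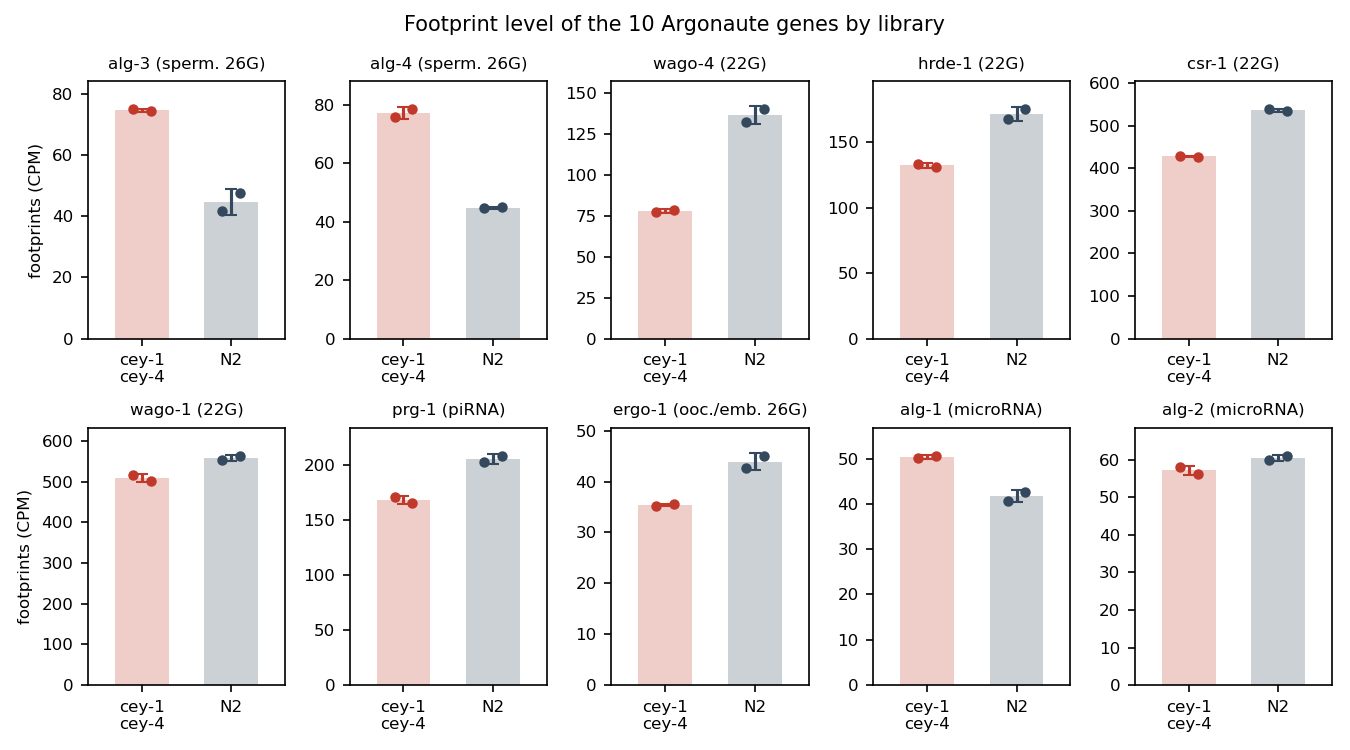
Footprint level (CPM) of each of the 10 Argonaute genes, with 1 panel per gene, the cey-1 cey-4 mutant left and N2 right. Points are libraries, bars their mean and whiskers ± SD (n = 2 each). Both mutant libraries lie above both N2 libraries for alg-3, alg-4 and alg-1, and below them for the other 7 genes.

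ALG-3 and ALG-4 bind 26G RNAs during spermatogenesis and are needed for normal sperm at elevated temperature. alg-3 (WBGene00011910) had 75.2 and 74.4 CPM in the mutant, against 41.8 and 47.8 CPM in N2. The mutant libraries lay together, and the N2 libraries, both far lower, differed from each other more than the mutant pair did. Its log2 fold change was 0.74 (SE 0.053, adjusted p = 1.55e-18 in edgeR), from means of 74.8 ± 0.52 CPM in the mutant and 44.8 ± 4.19 CPM in N2 (SD, n = 2 each). alg-4 (WBGene00006449) had 75.7 and 78.6 CPM in the mutant, against 44.6 and 45 CPM in N2. Here the pair of N2 libraries was the tighter one, and the gap between genotypes was again wider than either pair's spread. Its log2 fold change was 0.78 (SE 0.050, adjusted p = 1.9e-22 in edgeR). Of all genes tested, 4.59% had a higher log2 fold change than alg-3 and 4.06% a higher one than alg-4.

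The balance within the pair did not separate the genotypes. alg-3 gave 49.8% and 48.6% of the counts of the pair in the mutant libraries, against 48.4% and 51.5% in the N2 libraries. The genotypes overlapped in this share, and the exact binomial 95% intervals, which cover counting error only, ran from 46.6% to 53.4% over the 4 libraries. These genes are close paralogs, and how reads that match both were counted is not given in the sources used here, so the division between them is uncertain. Their sum was 151 and 153 CPM in the mutant, against 86.4 and 92.8 CPM in N2. It made up 9.31% and 9.56% of the counts of all 10 members in the mutant and 4.73% and 4.97% in N2.

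Sperm markers moved with this pair. Rises were called for 17.4% of all genes tested. Of 21 sperm marker genes 19 were tested and all 19 rose. Their median log2 fold change was 0.58, and their summed level was 686 and 712 CPM in the mutant, against 462 and 473 CPM in N2. The sperm chromatin gene spch-1 had 183 and 198 CPM in the mutant, against 116 and 117 CPM in N2. The other markers were spe-38, too low to test, and msd-1, listed at 0 in all 4 libraries. alg-3 and alg-4 together gave 220 and 215 counts per 1000 sperm marker counts in the mutant, against 187 and 196 in N2, so the pair was also higher relative to these markers. The part of sperm content in the rise was not tested.

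The 22G Argonautes are the most diverse class in the worm and act in the germline on many transcripts. WAGO-4 works in the cytoplasm beside the helicase ZNFX-1 and takes part in the inheritance of RNA silencing. wago-4 (WBGene00010263) had 77.2 and 78.9 CPM in the mutant, against 133 and 140.4 CPM in N2. Both mutant libraries stood far below both N2 libraries, and each pair was close. Its log2 fold change was -0.81 (SE 0.044, adjusted p = 2.01e-26 in edgeR), the lowest p of the 10 members, and 98.3% of all genes tested had a higher log2 fold change. In linear terms the mutant had 0.571 of the N2 level.

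HRDE-1 is the nuclear Argonaute of the germline, which directs heritable silencing of chromatin. hrde-1 (WBGene00007624) had 134 and 131 CPM in the mutant, against 168 and 175 CPM in N2. The genotypes were clearly apart, and the log2 fold change was -0.38 (SE 0.040, adjusted p = 9.72e-13 in edgeR). CSR-1 is the slicing Argonaute that binds 22G RNAs against germline-expressed genes. csr-1 (WBGene00017641) had 429 and 427 CPM in the mutant, against 539 and 534 CPM in N2. Replicates of csr-1 lay within a few CPM of each other in both genotypes, and the log2 fold change was -0.33 (SE 0.038, adjusted p = 3.85e-11 in edgeR). The table holds 1 row for csr-1, so its long isoform, known from spermatogenesis, and its short isoform of the oogenic germline were counted together.

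WAGO-1 silences transposons, pseudogenes and other targets from the P granules. wago-1 (WBGene00011061) had 517 and 503 CPM in the mutant, against 553 and 565 CPM in N2. The fall was the smallest among the 4 chosen genes of the class, with a log2 fold change of -0.14 (SE 0.041, adjusted p = 0.00664 in edgeR). It did not pass without mutant replicate 1 (log2 fold change -0.15, edgeR adjusted p = 0.0565) or without mutant replicate 2 (-0.12, adjusted p = 0.144). It also did not pass when the libraries were scaled on germline marker genes (-0.023, adjusted p = 0.70) or by upper-quartile factors (-0.09, adjusted p = 0.0827).

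**Figure D2:**
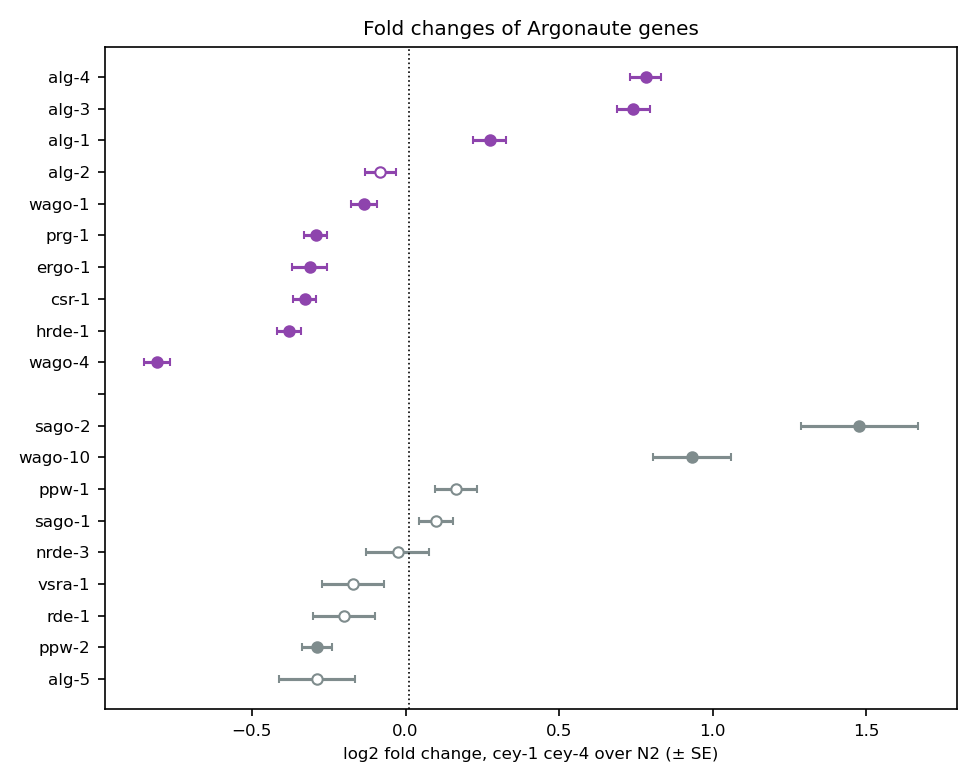
Log2 fold change ± SE, cey-1 cey-4 over N2, for the 10 members (purple, upper block) and 9 other Argonaute genes (grey, lower block). Filled points passed the edgeR test, open points did not, and the dotted line is the median of all genes tested (0.012). alg-4 and alg-3 lie at 0.78 and 0.74 and wago-4 at -0.81, and in the lower block sago-2 lies at 1.48.

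The composition of the 4 chosen genes of the 22G class changed along with their total. The 4 genes together had 1156 and 1140 CPM in the mutant, against 1393 and 1415 CPM in N2. wago-4 gave 6.68% and 6.92% of their counts in the mutant, against 9.52% and 9.92% in N2. wago-1 gave 44.7% and 44.1% in the mutant, against 39.7% and 39.9% in N2. So wago-4 held a smaller and wago-1 a larger share in both mutant libraries than in either N2 library, with exact binomial intervals that did not overlap between genotypes. hrde-1 gave 11.6% and 11.5% in the mutant, against 12.1% and 12.4% in N2. csr-1 gave 37.1% and 37.5% in the mutant, against 38.7% and 37.8% in N2, and for these genes the intervals of mutant and N2 libraries overlapped in part. With 2 libraries against 2, an exact permutation test of a share cannot give a p below 0.333, so these shares carry no test.

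**Figure D3:**
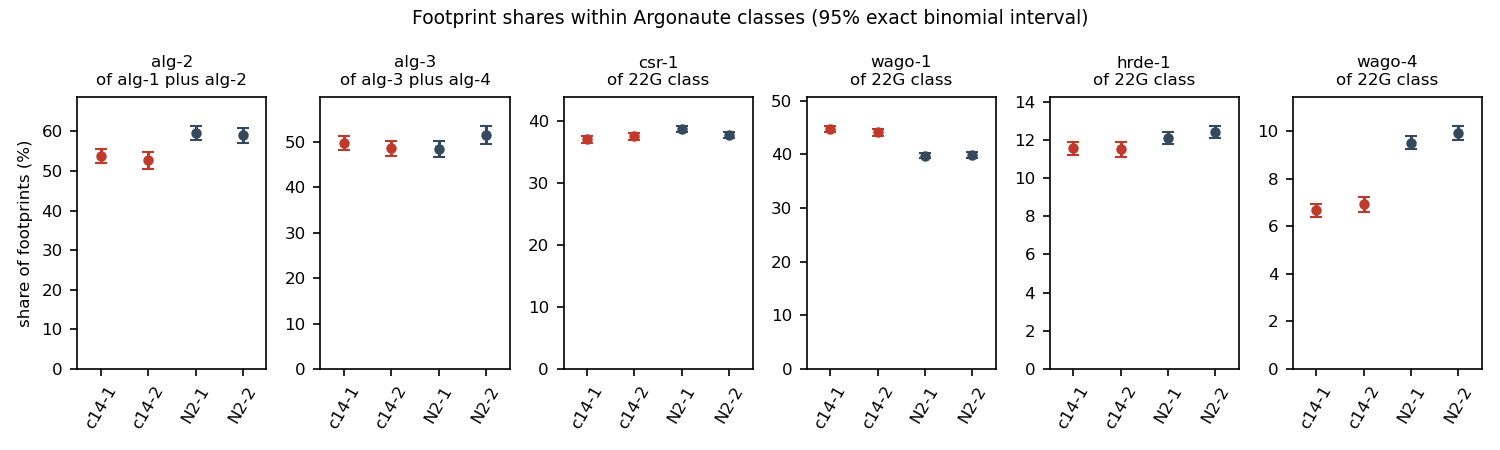
Share of footprint counts (%) held by a gene within its class, for the 2 mutant libraries (c14-1 and c14-2, red) and the 2 N2 libraries (dark). Bars are exact binomial 95% intervals. wago-4 lies at 6.68% and 6.92% in the mutant and at 9.52% and 9.92% in N2, and alg-3 stays between 48.4% and 51.5% in all 4.

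PRG-1 is the worm's PIWI protein, which carries piRNAs and licenses silencing of foreign sequence. prg-1 (WBGene00004178) had 171 and 165 CPM in the mutant, against 203 and 209 CPM in N2. The genotypes did not overlap, and the log2 fold change was -0.29 (SE 0.038, adjusted p = 1.32e-09 in edgeR). ERGO-1 binds 26G RNAs of oocytes and embryos that target duplicated genes and pseudogenes. ergo-1 (WBGene00019971) had 35.3 and 35.6 CPM in the mutant, against 42.8 and 45.1 CPM in N2. Its log2 fold change was -0.31 (SE 0.057, adjusted p = 6.69e-06 in edgeR), opposite in sign to that of the spermatogenic 26G genes.

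Most oocyte markers fell in the same libraries, and the germline markers were mixed. Where 16.6% of all genes tested fell, 15 of 16 oocyte and eggshell markers fell and perm-4 did not pass. Their median log2 fold change was -1.02, and their summed level was 4070 and 3993 CPM in the mutant, against 6697 and 6929 CPM in N2. The eggshell gene cpg-1 had 380.1 and 363 CPM in the mutant, against 1068 and 1035 CPM in N2. Of 15 markers of the germline as a whole 7 fell, 1 rose and 7 did not pass, where 17.4% of all genes tested rose. The germline markers had a median of -0.087 and a summed level of 3066 and 3034 CPM in the mutant, against 3303 and 3372 CPM in N2. None of these markers was at 0. Their part in the falls of the germline Argonautes was not tested.

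Set against these markers, the falling members separated. wago-4 gave 19 and 19.8 counts per 1000 oocyte and eggshell marker counts in the mutant, against 19.8 and 20.3 in N2, so it lay close to the N2 ratio. In the mutant perm-4 and perm-2 weighed most in this marker sum, with means of 1292 and 781 CPM. Their log2 fold changes were -0.10 and -0.20, beside a list median of -1.02, so ratios to the sum depend on these genes. In the germline marker sum iff-1 and glh-1 weighed most, with means of 979 and 684 CPM in the mutant. Their log2 fold changes were -0.26 and 0.037, and ratios to that sum depend on them. Per 1000 germline marker counts wago-4 gave 25.2 and 26 in the mutant, against 40.2 and 41.6 in N2. ergo-1 gave 8.66 and 8.91 counts per 1000 oocyte and eggshell marker counts in the mutant, against 6.38 and 6.51 in N2. Per 1000 germline marker counts it gave 11.5 and 11.7 in the mutant, against 12.9 and 13.4 in N2, so the 2 ratios went in opposite directions. The 4 chosen genes of the 22G class gave 377 and 376 counts per 1000 germline marker counts in the mutant, against 422 and 420.0 in N2. For prg-1 the values were 55.8 and 54.5 in the mutant, against 61.4 and 61.9 in N2.

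The 3 genes nearest to wago-4 in their profile over the 4 libraries, by Euclidean distance of centred log2 CPM among 11136 genes with a mean of at least 30 counts, were Y54G9A.5, gln-6 and mex-1. The distances were 0.041, 0.046 and 0.048. mex-1, a maternal RNA-binding protein of the early embryo, had 44.4 and 47.4 CPM in the mutant, against 78.3 and 84.0 CPM in N2. gln-6, a glutamine synthetase gene, had 37.6 and 38.6 CPM in the mutant, against 63.0 and 66.2 CPM in N2. A profile of 4 libraries mostly reflects the fold change, and 16 genes lay within 0.1.

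The microRNA Argonautes ALG-1 and ALG-2 overlap in function, and each carries microRNAs such as those of the developmental timing pathway. alg-1 (WBGene00000105) had 50.1 and 50.7 CPM in the mutant, against 40.7 and 42.6 CPM in N2. It rose, with a log2 fold change of 0.27 (SE 0.054, adjusted p = 3.04e-05 in edgeR). alg-2 (WBGene00000106) had 58.1 and 56.4 CPM in the mutant, against 59.9 and 61.2 CPM in N2. The mutant libraries lay just below N2, but the difference, -0.08 in log2 (SE 0.050), missed the threshold (edgeR adjusted p = 0.216), and it turned to 0.031 when the libraries were scaled on germline marker genes.

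Within the pair the balance shifted towards alg-1. alg-2 gave 53.7% and 52.7% of the counts of the pair in the mutant, against 59.5% and 59.0% in N2. The exact binomial intervals reached at most 55.5% in the mutant and began at 57.1% in N2. They cover counting error only, and this share carries no test. The summed level of the pair was 108 and 107 CPM in the mutant, against 101 and 103.8 CPM in N2. These genes are paralogs too, and the doubt about reads that match both holds for them. Somatic markers were higher in the same libraries: 10 of 12 muscle markers rose (median log2 fold change 0.52), as did 4 of 7 hypodermis markers (0.40) and 6 of 9 intestine markers (0.19), while 3 of 12 neuron markers rose and 3 fell (0.034). Of all genes tested, 17.4% rose and 16.6% fell. None of the somatic markers was at 0. The myosin gene unc-54 had 13890 and 13800 CPM in the mutant, against 6878 and 7275 CPM in N2. The part of these tissues in the rise of alg-1 was not tested.

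The scaling of the libraries moved all members together. Scaling on somatic marker genes set the median log2 fold change of all genes to -0.22, and scaling on germline marker genes set it to 0.13. Under the somatic scaling alg-1 was at 0.044 and not called (edgeR adjusted p = 0.544), and alg-2 had -0.31 (adjusted p = 5.1e-07). A scaling shifts all genes by about the same amount, so a difference from the median of all genes is fixed by construction. In those terms alg-1 was at 0.26, alg-2 at -0.09, alg-3 at 0.73, alg-4 at 0.77, wago-4 at -0.82 and wago-1 at -0.15. alg-3, alg-4, wago-4, hrde-1, csr-1, prg-1 and ergo-1 kept their direction and passed under each of 6 scalings (TMM, upper quartile, DESeq2 size factors, library totals, somatic and germline markers). Tested against a fold change of 1.2 rather than against no change, 1259 of all 13086 genes passed. Of the members, alg-3, alg-4, wago-4 and hrde-1 passed. csr-1 (edgeR adjusted p = 0.104), ergo-1 (0.367), prg-1 (0.413), alg-1 (0.684) and wago-1 (1) did not.

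**Figure D4:**
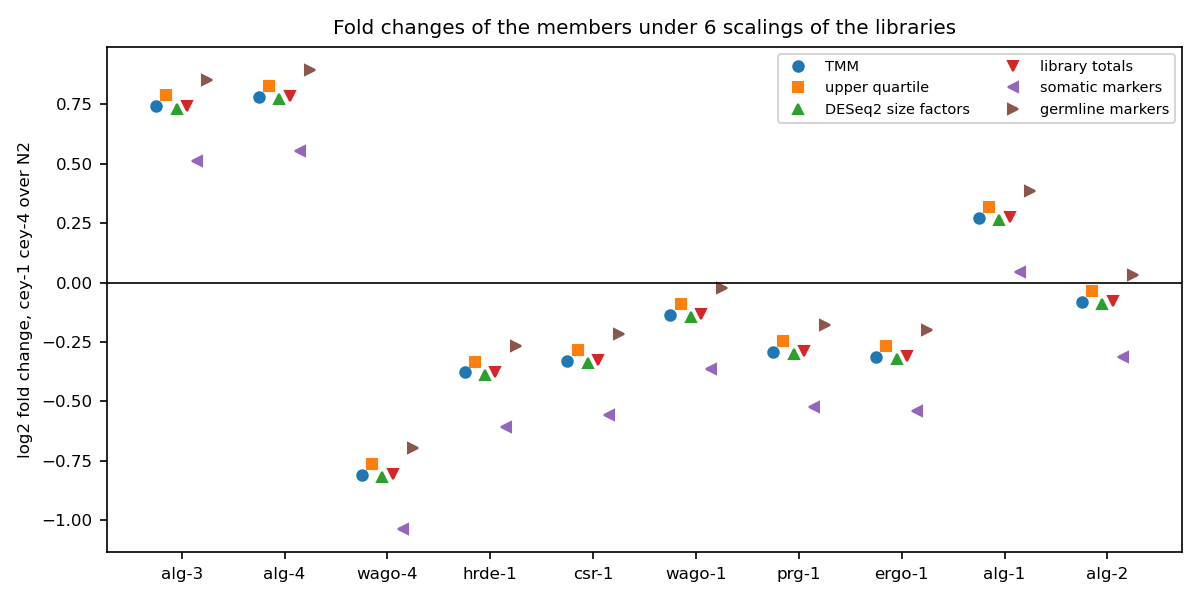
Log2 fold change, cey-1 cey-4 over N2, of each member under 6 scalings of the libraries (one marker shape each). The scalings on somatic and germline marker genes move every member down or up together, to 0.044 and 0.39 for alg-1 and to -0.31 and 0.031 for alg-2.

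Of 14 other Argonaute genes listed, 10 were in the table and 9 were tested; 2 rose, 1 fell and 6 did not pass, a share of calls near the 34.0% of all genes tested. sago-2, a secondary Argonaute of RNA interference, had 3.79 and 3.86 CPM in the mutant, against 1.22 and 1.54 CPM in N2. Its log2 fold change of 1.48 (SE 0.192, adjusted p = 1.45e-09 in edgeR) was higher than that of any of the 10 members, from 103 and 86 counts in the mutant and 40 and 43 counts in N2. wago-10 had 8.28 and 7.49 CPM in the mutant, against 3.80 and 4.52 CPM in N2 (log2 fold change 0.93, SE 0.127, edgeR adjusted p = 6.58e-09). ppw-2, a germline WAGO also known as wago-3, fell to 63.7 and 59.9 CPM in the mutant, against 73.7 and 77.1 CPM in N2 (log2 fold change -0.29, edgeR adjusted p = 1.57e-06). sago-1, at 0.10, was not called (edgeR adjusted p = 0.157). It was called lower under the somatic scaling (-0.13, edgeR adjusted p = 0.0456) and higher under the germline scaling (0.21, adjusted p = 0.00134) and with upper-quartile factors (0.15, adjusted p = 0.0319). wago-5, with a single count in all, was too low to test, and prg-2, wago-2, wago-11 and hpo-24 were not matched.

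The 19 genes listed for 22G synthesis and the mutator complex gave 18 tested, of which 1 rose, 1 fell and 16 did not pass, where 34.0% of all genes tested were called. Their median log2 fold change was 0.020, beside 0.012 for all genes. ego-1, the germline RNA-dependent RNA polymerase, had 95.6 and 99.3 CPM in the mutant, against 89.02 and 88.9 CPM in N2. Its log2 fold change of 0.13 (edgeR adjusted p = 0.0182) did not pass without mutant replicate 2 (0.096, adjusted p = 0.259) and was -0.10 under the somatic scaling. The Tudor protein gene ekl-1 fell by 0.17 (edgeR adjusted p = 0.0103), but did not pass without N2 replicate 2 (-0.15, adjusted p = 0.0578) or mutant replicate 1 (-0.15, adjusted p = 0.125). The helicase gene rde-12, at 0.095, was not called (edgeR adjusted p = 0.0846). It was called higher under the germline scaling (0.21, edgeR adjusted p = 7.19e-05), with upper-quartile factors (0.14, adjusted p = 0.00786) and with a filter of 50 counts (0.10, adjusted p = 0.0452), and lower under the somatic scaling (-0.13, adjusted p = 0.0101).

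Of 16 piRNA pathway genes 15 were tested, of which 9 fell, 2 rose and 4 did not pass. Of all genes tested, 16.6% fell and 17.4% rose. The list had a median log2 fold change of -0.19. tost-1 had 36.3 and 36.0 CPM in the mutant, against 50.9 and 47.6 CPM in N2 (log2 fold change -0.45, SE 0.056, edgeR adjusted p = 3.69e-10). Its partners pid-3 and tofu-6 fell by 0.26 and 0.27 (edgeR adjusted p = 1.33e-06 and 1.43e-06). The genes that rose, chosen after their values were seen, were tofu-5 (0.26, edgeR adjusted p = 0.0377) and pid-2 (0.20, adjusted p = 0.0414; -0.031 under the somatic scaling). Neither call was firm: pid-2 did not pass without any 1 of the 4 libraries (adjusted p 0.0716 to 0.291), and tofu-5 did not pass without N2 replicate 2 (0.197), mutant replicate 1 (0.11) or mutant replicate 2 (0.172).

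Of 10 microRNA pathway genes 5 were called lower, 1 higher and 4 neither, where 16.6% of all genes tested were lower and 17.4% higher. The list had a median of -0.15. The one that rose was ain-1, a GW182-type partner of ALG-1 and ALG-2, with 52.9 and 50.8 CPM in the mutant, against 36.3 and 36.2 CPM in N2 (log2 fold change 0.51, SE 0.055, edgeR adjusted p = 1.77e-12). paxt-1, a partner of the exonuclease XRN-2, fell by 0.44 (SE 0.095, adjusted p = 1.18e-04 in edgeR). The rest of the falling genes, named with their values known, were pash-1 (-0.39), nhl-2 (-0.22), dcr-1 (-0.17) and xrn-2 (-0.14). pash-1 did not pass without N2 replicate 1 (-0.24, adjusted p = 0.118), nor dcr-1, which encodes Dicer, without mutant replicate 1 (-0.16, adjusted p = 0.0587). xrn-2 did not pass without N2 replicate 2 (adjusted p = 0.219), mutant replicate 1 (0.138) or mutant replicate 2 (0.0622). tsn-1 and vig-1, which encode RISC-associated proteins, lay at 0.069 and -0.13 and were not called, and tsn-1 was called lower under the somatic scaling (-0.16, edgeR adjusted p = 0.0209) and higher under the germline scaling (0.18, adjusted p = 0.00272). vig-1 passed without N2 replicate 1 (-0.18, edgeR adjusted p = 0.00432) or mutant replicate 2 (-0.19, adjusted p = 0.0407), and with limma-voom (adjusted p = 0.0219) or limma on the deposited log2 values (0.029).

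Of 8 genes of the ERI complex, which makes 26G RNAs, 4 fell and 4 did not pass, where 16.6% of all genes tested fell. The list had a median of -0.18. eri-7 fell by 0.48 (SE 0.117, adjusted p = 7.92e-04 in edgeR; -0.34 and 0.0512 without N2 replicate 1), and rde-4 fell by 0.17 (adjusted p = 0.0215; 0.0662 to 0.118 without any 1 library). eri-9 (-0.49, adjusted p = 0.0252) and eri-5 (-0.31, adjusted p = 0.0475) were chosen after their values were seen. eri-9 did not pass without N2 replicate 2 (-0.41, 0.127) or mutant replicate 2 (-0.31, 0.309), and eri-5 without any 1 library (0.0565 to 0.217). The polymerase gene rrf-3, at -0.12, was not called (edgeR adjusted p = 0.282). eri-6, counted apart from eri-7 and named with its value known, was not called either (-0.20, SE 0.203, edgeR adjusted p = 0.491).

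Of 8 nuclear RNA interference genes 2 were called lower, 1 higher and 5 neither, near the 34.0% called over all genes tested, with a median of -0.070. The histone methyltransferase gene set-25 fell by 0.35 (SE 0.084, adjusted p = 5.1e-04 in edgeR) and morc-1 by 0.16 (adjusted p = 0.0048; -0.11 and 0.214 without mutant replicate 1). The gene that rose, nrde-2 (0.14, edgeR adjusted p = 0.0245; -0.085 under the somatic scaling), was chosen after its value was seen and did not pass without N2 replicate 1 (0.282), mutant replicate 1 (0.128) or mutant replicate 2 (0.11). met-2, at -0.11, was not called (edgeR adjusted p = 0.0683). Of 7 genes for the import of RNA and exogenous RNA interference none was called by edgeR with TMM factors, by DESeq2 or by limma. 1 of them, haf-6 at -0.11, had an unadjusted edgeR p under 0.05, and rsd-2 was at -0.039 and sid-2 at 0.10. Under the somatic scaling haf-6 (-0.34, edgeR adjusted p = 2.36e-07) and rsd-2 (-0.27, adjusted p = 3.94e-05) were called lower.

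Many calls among the pathway genes depended on the scaling or the tool. Over the 7 lists edgeR called 29 genes and DESeq2 called 12. Of all 13086 genes tested edgeR called 4455 (34.0%) and DESeq2 called 2192, so fewer calls with DESeq2 were not particular to these lists. Under the germline scaling xrn-2 (-0.030), morc-1 (-0.051), rde-4 (-0.054), dcr-1 (-0.055), ekl-1 (-0.055), nhl-2 (-0.11), eri-5 (-0.20) and eri-9 (-0.38) were not called, with edgeR adjusted p of 0.0908 to 0.679. Upper-quartile factors ended the calls of xrn-2, morc-1, rde-4, ekl-1 and eri-5 (edgeR adjusted p 0.0512 to 0.123). DESeq2 did not call xrn-2, morc-1, rde-4, dcr-1, ekl-1, eri-5, eri-7, eri-9, pash-1, ego-1, nrde-2, pid-2 and tofu-5 (adjusted p 0.0568 to 0.319). Under the somatic scaling tofu-5 was at 0.033 and not called (edgeR adjusted p = 0.817), whereas vig-1 (-0.36, adjusted p = 1.31e-06), rrf-3 (-0.35, adjusted p = 2.9e-04) and met-2 (-0.34, adjusted p = 2.88e-08) were called lower.

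**Figure D5:**
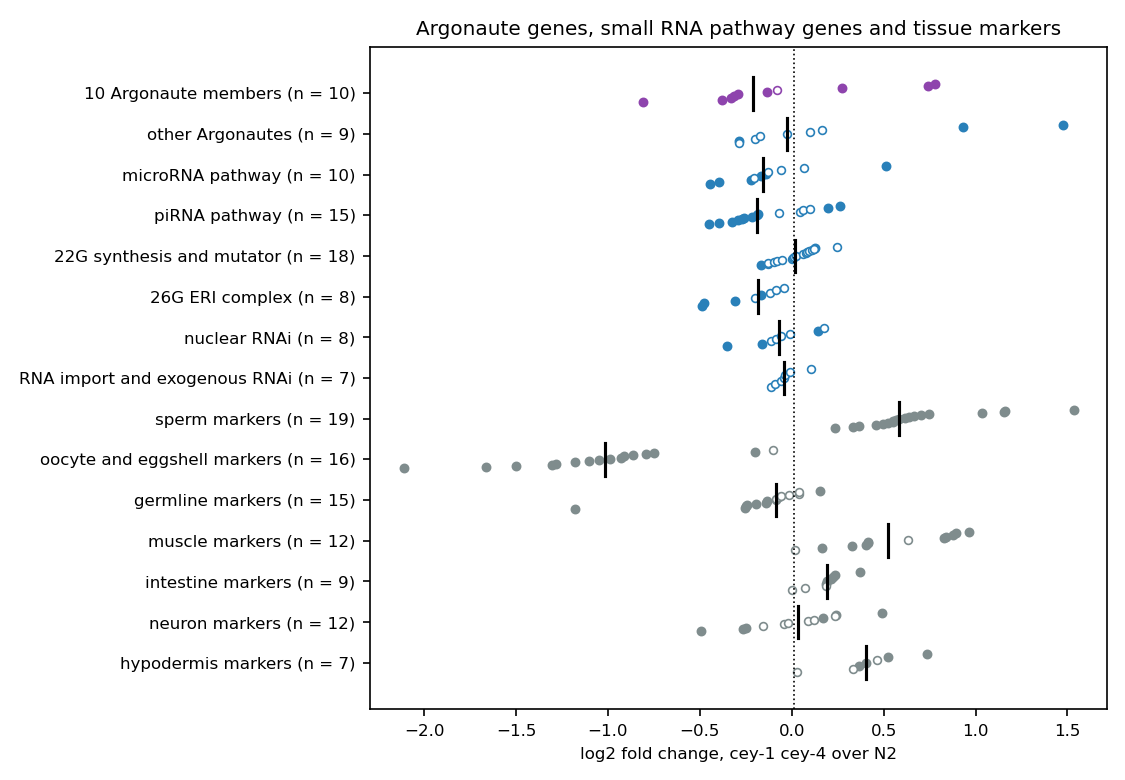
Log2 fold change, cey-1 cey-4 over N2, of the members (purple), the genes of 7 pathway lists (blue) and 7 lists of tissue markers (grey). Filled points passed the edgeR test and open points did not, black bars are list medians, and the dotted line is the median of all genes (0.012). The spermatogenic members lie at 0.74 and 0.78 beside a sperm marker median of 0.58, and wago-4 lies at -0.81 beside an oocyte and eggshell marker median of -1.02.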

How the data were processed

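The authors deposited whole-number counts per gene for 4 ribosome footprint libraries, and log2 values. Scaling each count to the smallest library, adding 8 and taking log2 gave the deposited log2 values within 0.0005. Bowtie is named in the submitters' processing notes; its version is not given in the sources used here, nor are the genome build and the counting rule. Of 20182 features, 3 that repeat a gene under its sequence name were left out.

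edgeR 4.0.16 under R 4.3.3 tested the counts (TMM, filterByExpr with a minimum count of 10, robust glmQLFit, glmQLFTest, 2-sided, genotype alone), with Benjamini-Hochberg adjustment over all genes. The SE is the log2 fold change divided by the square root of F. The test was run on counts simulated with the spread fitted to these libraries. That checks the code, and cannot show whether the libraries of a genotype are independent. CPM uses library totals; TMM factors were 0.997 to 1.004. Replicates differed by more than counting error (a chi-square of 7.85 per degree of freedom in the mutant and of 22.9 in N2). 3 counts, the most a count of 0 allows, were 0.0912 to 0.135 CPM.

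Alternatives used DESeq2 1.42.0 and limma 3.58.1, other scalings, filters and a replicate block, and left out each library in turn. Members, lists and markers were chosen with earlier results of these data known. Named genes are the members, the 2 genes of lowest p and the 2 of highest mean CPM in each pathway list, cey-1, cey-4, 3 markers and the 3 genes nearest to the member of lowest p. No coding lengths were used, so levels are not compared between genes.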

Additional observations from a re-analysis of the deposited data

How the results depend on the processing

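Over 15 alternatives the 10 members gave 150 log2 fold changes, of which 138 kept direction and side of the threshold, 10 no longer passed, 1 newly passed and 1 turned. Against a fold change of 1.2, 4 members passed (alg-3, alg-4, wago-4 and hrde-1), 2 of them lower, beside 1259 of all 13086 genes tested. Under the other alternatives 8 or 9 members passed. Without any 1 library, 8 to 9 passed (3 higher, 5 to 6 lower), all genes called numbered 3172 to 3885 (1624 to 1963 higher, 1540 to 1922 lower) against 4455, and pathway genes called 16 to 23 (3 to 5 higher, 12 to 18 lower) against 29 (7 and 22).

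Counts for all genes were 2192 with DESeq2 (1007 higher, 1185 lower) and 1259 against a fold change of 1.2 (809 and 450). With scaling on somatic markers 894 rose and 5678 fell, on germline markers 3684 and 1000, and with upper-quartile factors 2730 and 1598, against 2278 and 2177. Pathway genes called were 12 with DESeq2 (3 higher, 9 lower), 57 with somatic scaling (3 and 54), 4 against a fold change of 1.2 (3 and 1), 17 higher and 10 lower with germline scaling, and 11 higher with upper-quartile factors.

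Values that turned were, under somatic scaling, sago-1 (-0.13), tsn-1 (-0.16), ego-1 (-0.10), rde-12 (-0.13), sid-2 (-0.13), pid-2 (-0.031) and nrde-2 (-0.085). Under germline scaling they were alg-2 (0.031), met-2 (0.0019), rsd-2 (0.073) and haf-6 (0.0001), and with upper-quartile factors rsd-2 (0.0067). No label says that a replicate number marks a shared culture or day; the deviations of same-numbered libraries correlated at 0.267. The replicate block gave 4782 calls, 9 members among them, and newly called vig-1 (edgeR adjusted p = 0.00868), met-2 (0.0421) and rde-12 (0.0466). The causes were not tested. Among the members counting error weighs most on ergo-1, with 793 counts in mutant library 2.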
